A study of Mus musculus with 7 samples.

Results

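The genes described here are 46 genes of the cell division programme, measured in whole hearts of mdx mice. They were named as a list, and each was represented by the probe set that the array's annotation assigns to that gene alone and that was brightest on average over all arrays. Of the 46, 45 could be represented in this way, among 18193 genes represented likewise, and Ccnb1, which encodes a mitotic cyclin, was not analysed here. The list falls into 16 genes of S phase, in which DNA is copied, and 29 measured genes of M phase, in which chromosomes are separated. Expression was measured on Affymetrix mouse genome arrays with 1 heart per array, from 7 mice aged 7 months. Each mouse was mdx, that is, without functional dystrophin as in Duchenne muscular dystrophy, and per the study's methods each was male. In 4 of them (mdx HRTΔIKKβ, labelled Myh6-cre;IKKβΔ) Cre recombinase under the Myh6 promoter, which is active in cardiomyocytes, deleted floxed IKKβ, the kinase that activates NF-κB. The other 3 (mdx IKKβf/f) were littermates that carried the floxed gene without Cre, so that IKKβ was intact in their cardiomyocytes. Non-cardiomyocytes, among them fibroblasts, endothelial cells and leukocytes, kept IKKβ in both groups.

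Cells that leave quiescence first switch on E2F target genes, which load the replicative helicase onto DNA, make deoxynucleotides and copy the genome. Later a second wave of genes, controlled through the DREAM and MMB-FOXM1 complexes, builds the spindle, the kinetochore and the machinery of cytokinesis. Adult cardiomyocytes rarely divide, so that in an adult heart transcripts of this programme are mostly carried by other cells, including leukocytes and fibroblasts, and by any blood cell precursors present. In a whole heart more dividing cells and more of the transcript per cell cannot be told apart.

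Array medians ran from 6.73 to 6.751 on the log2 scale. Markers of cardiomyocytes were bright in every heart, with list scores (log2 values averaged over the genes of a list after each gene's own mean was subtracted) from -0.01 to 0.04. Several of them (Myh6, Tnnt2, Tnni3, Actc1, Myl2, Myl3 and Pln) lay close to the highest value on any array, 15.09, where differences between hearts may be compressed. Ikbkb, which encodes IKKβ, differed by -0.18 ± 0.11 (log2 difference ± SE of limma, mdx HRTΔIKKβ minus mdx IKKβf/f, adjusted p = 0.801). Its other probe sets differed by -0.08 to 0.02. The sources used here do not say whether its probe sets lie in the deleted part. By qPCR the study reports reduced Ikbkb expression in hearts of the knockout mice. Among these hearts, mdx HRTΔIKKβ replicate 2 and mdx IKKβf/f replicate 1 stood apart from the other 5 in the cell division genes, and the spread of the members and the comparison of the groups are given with and without them. List scores are given heart by heart with all 7 hearts only. The number of arrays limits the precision of every value.

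Cell division genes did not separate the groups, but they differed strongly between hearts within each group. None of the 45 measured members passed the test for a difference between the genotypes, and their median log2 difference was -0.05. Instead most members varied together from heart to heart. In 37 of the 45 members (82.2%) the 2 highest hearts were mdx HRTΔIKKβ replicate 2 and mdx IKKβf/f replicate 1, which are 1 heart of each group. The same 2 hearts were the highest for 708 of all 18193 genes, or 3.89%. The pattern held in 14 of 16 S phase members and in 23 of 29 M phase members. It was noticed in these data and is a description, with no test. The members were chosen with earlier results of these data known, and other genes of S and M phase showed the pattern less often (31.8% and 52.9%).

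**Figure D1:**
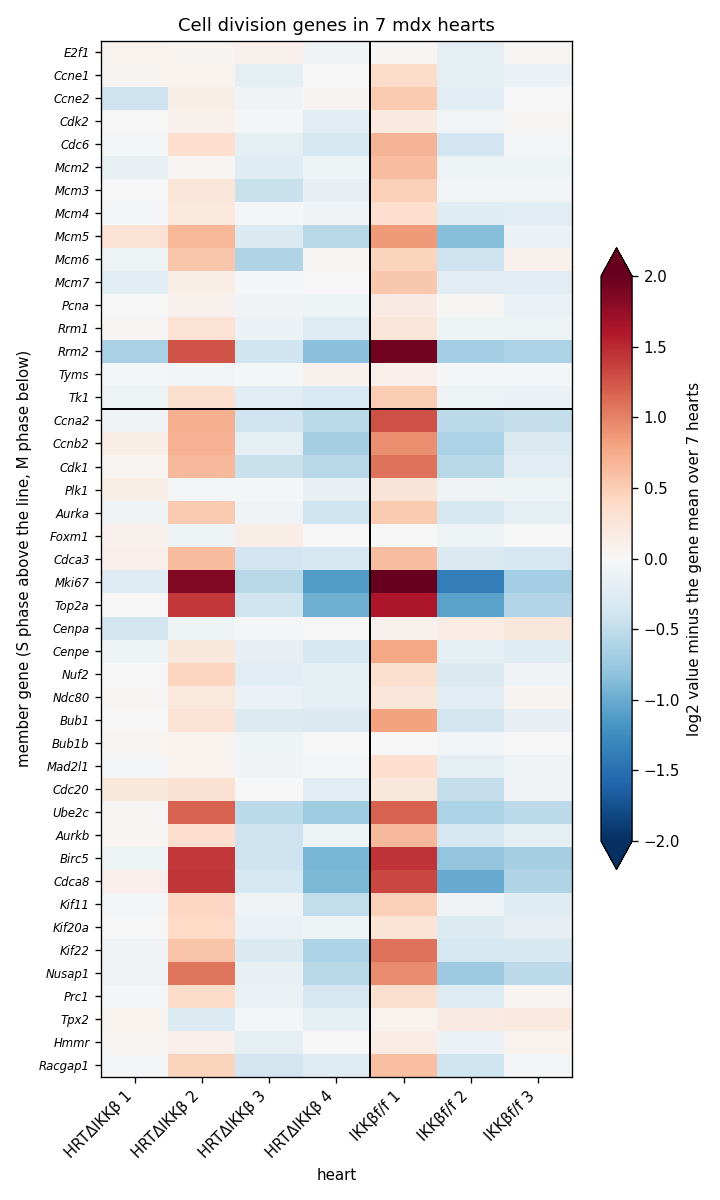
Log2 values of the 45 measured members (rows) in the 7 hearts (columns, 4 mdx HRTΔIKKβ and 3 mdx IKKβf/f), each centred on its gene's mean over the 7 hearts, with red above and blue below the mean and colours saturating at 2. The columns of HRTΔIKKβ 2 and IKKβf/f 1 are red in most rows, and they hold the 2 highest values in 37 of 45 rows.

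Mki67, which encodes the proliferation marker Ki-67 on the surface of mitotic chromosomes, had the widest spread. Its log2 values were 7.14, 9.25, 6.85 and 6.28 in mdx HRTΔIKKβ replicates 1 to 4 and 9.55, 6.02 and 6.72 in mdx IKKβf/f replicates 1 to 3. The 2 high hearts lay at least 2.11 above every other heart, whereas those others spanned 1.12. The groups overlapped fully, with a difference of -0.05 ± 0.96 (adjusted p = 0.994) and a 95% interval from -2.29 to 2.19. Top2a, the topoisomerase that untangles sister chromatids, ran in parallel, with 6.59, 8.0, 6.19 and 5.61 in mdx HRTΔIKKβ and 8.19, 5.50 and 5.99 in mdx IKKβf/f hearts. Its difference was 0.04 ± 0.75 (adjusted p = 0.994).

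Rrm2, the regulated subunit of ribonucleotide reductase, which supplies deoxynucleotides for replication, had the widest spread among S phase members. It stood at 6.13, 8.03, 6.37 and 5.93 in mdx HRTΔIKKβ and at 8.71, 6.10 and 6.14 in mdx IKKβf/f hearts. The difference between groups was -0.37 ± 0.75 (adjusted p = 0.929), and the interval reached from -2.11 to 1.37. This probe set is of a type that can cross-hybridize, and with such probe sets left out the difference was -0.027, from a probe set that read 5.98, 7.44, 6.01 and 6.06 against 7.25, 5.95 and 6.01 and kept the same 2 hearts on top. Cdca8, which encodes borealin of the chromosomal passenger complex, measured 6.39, 7.73, 5.95 and 5.39 against 7.63, 5.29 and 5.69. Its difference was 0.16 ± 0.69 (adjusted p = 0.97). Cdk1, the kinase that drives entry into mitosis, had values of 7.07, 7.68, 6.60 and 6.49 against 8.13, 6.49 and 6.81, and a difference of -0.18 ± 0.43 (adjusted p = 0.942). In each of these genes 1 heart of either group was high and the remaining hearts of both groups were interleaved.

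Pcna, the sliding clamp of replicative DNA polymerases, had the same 2 hearts on top with a much narrower spread. It was 11.33, 11.41, 11.25 and 11.23 in mdx HRTΔIKKβ and 11.48, 11.34 and 11.19 in mdx IKKβf/f hearts, a range of 0.29. The difference was -0.03 ± 0.08 (adjusted p = 0.946) with an interval from -0.22 to 0.16. PCNA also serves DNA repair and is transcribed outside dividing cells.

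**Figure D2:**
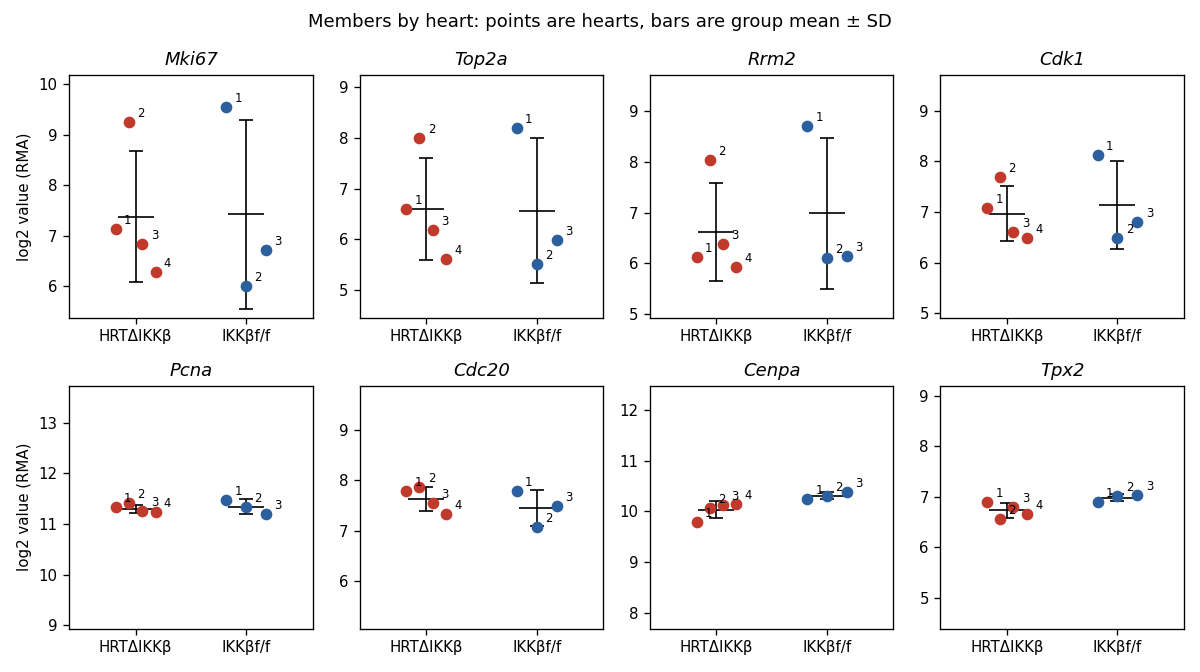
Log2 values (y axis, the same span in each panel) of 8 members in mdx HRTΔIKKβ (red) and mdx IKKβf/f (blue) hearts. Numbered points are single hearts by replicate, and the bars are group means ± SD. In Mki67, Top2a, Rrm2 and Cdk1 mdx HRTΔIKKβ replicate 2 and mdx IKKβf/f replicate 1 lie above all others, whereas in Cenpa and Tpx2 they do not.

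The spread between hearts was wider in the cell division genes than in most genes. From the lowest to the highest heart the members spanned a median of 0.92 on the log2 scale, against 0.32 over all genes. Of the 45 members, 18 (40%) spanned at least 1, as 4.79% of all genes did, and 5 (11.1%) spanned at least 2, against 1.08% of all genes. Those 5 were Mki67, Rrm2, Top2a, Cdca8 and Birc5. These counts depend on the probe sets used. Among the 18, those of Rrm2, Cdca8, Mcm5, Kif22 and Aurkb are of a type that can cross-hybridize. The other probe sets of Cdca8 spanned 1.45 and 0.56, and those of Top2a 0.936 and 0.226. Those of Kif22 spanned 0.635 and 1.004, and that of Aurkb 0.403. In all 18 members that spanned at least 1 the same 2 hearts were the highest, against 145 of all 872 genes with such a span. Those 2 hearts are part of the span, so that this adds no separate support for the pattern. The median span was 0.80 in S phase members and 0.997 in M phase members. Over the other 5 hearts alone the members spanned a median of 0.37, against 0.26 over all genes. There, with the probe sets used, 4 of the 45 (8.89%, against 2.82% of all genes) spanned at least 1. They were Mki67, Top2a, Cdca8 and Mcm5. Over those 5 hearts 0 members spanned at least 2, against 0.517% of all genes. At the level of scores, the 16 S phase members stood at -0.08, 0.28, -0.18 and -0.18 in mdx HRTΔIKKβ replicates 1 to 4 and at 0.50, -0.24 and -0.11 in mdx IKKβf/f replicates 1 to 3. The 29 M phase members stood at -0.01, 0.53, -0.22 and -0.38 and at 0.68, -0.39 and -0.21. The 2 scores put the high hearts in the same order, with mdx IKKβf/f replicate 1 above mdx HRTΔIKKβ replicate 2. Single members followed suit: mdx IKKβf/f replicate 1 was the highest heart in 31 members and mdx HRTΔIKKβ replicate 2 in 10.

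The remaining hearts were not equal either. Among the other 5 hearts mdx HRTΔIKKβ replicate 1 was the highest in 30 of 45 members (66.7%), against 28.5% of all genes. It exceeded mdx IKKβf/f replicate 2 in 39 members, by a median of 0.25. At the lower end mdx IKKβf/f replicate 2 was the lowest of all 7 hearts in 18 members and mdx HRTΔIKKβ replicate 4 in 14. Each group therefore held 1 of the 2 highest and 1 of the 2 most often lowest hearts.

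By role, genes of the switch from G1 to S phase varied least among the S phase groups. E2f1, the transcription factor that opens the programme, had values of 7.17, 7.16, 7.19 and 7.04 in mdx HRTΔIKKβ and 7.14, 6.94 and 7.13 in mdx IKKβf/f hearts, and did not show the pattern. Its difference was 0.07 ± 0.07 (adjusted p = 0.844). Ccne2, a cyclin that activates CDK2, measured 5.0, 5.53, 5.33 and 5.46 against 5.93, 5.18 and 5.42, with a difference of -0.18 ± 0.19 (adjusted p = 0.858). Cdk2 itself measured 8.28, 8.38, 8.27 and 8.08 against 8.50, 8.25 and 8.31, with a difference of -0.10 ± 0.09 (adjusted p = 0.834). Both had the same 2 hearts on top, as did Ccne1, by margins of 0.07, 0.06 and 0.01 over the next heart.

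All 7 genes for the loading and activity of the replicative helicase had the same 2 hearts on top. They were Cdc6, the loading factor, and Mcm2 to Mcm7, the subunits of the MCM2-7 ring. Their group score was -0.03, 0.31, -0.26 and -0.17 in mdx HRTΔIKKβ and 0.56, -0.33 and -0.09 in mdx IKKβf/f hearts. Mcm2 measured 8.36, 8.55, 8.28 and 8.43 against 9.13, 8.41 and 8.43, and its difference was -0.25 ± 0.18 (adjusted p = 0.814). Mcm3 measured 7.71, 7.94, 7.26 and 7.53 against 8.18, 7.64 and 7.64, and its difference was -0.21 ± 0.19 (adjusted p = 0.838). In both genes mdx IKKβf/f replicate 1 was the highest heart, whereas in Mcm6 mdx HRTΔIKKβ replicate 2 was. With the probe sets used, the ranges of the subunits ran from 0.58 in Mcm4 to 1.70 in Mcm5. They depended on the probe set: that of Mcm5 is of a type that can cross-hybridize, and its others spanned 1.22 and 0.33. Of the clamp and nucleotide genes, Pcna, Rrm1, Rrm2 and Tk1 (thymidine kinase) shared the pattern and Tyms (thymidylate synthase) did not.

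Among genes of mitotic entry, Ccna2 and Ccnb2, which encode cyclins, Cdk1, Aurka, which encodes the kinase of the spindle poles, and Cdca3, which promotes degradation of the CDK1 inhibitor WEE1, had the 2 hearts on top. Their ranges ran from 0.92 (Aurka) to 1.80 (Ccna2). Plk1, a kinase of mitotic entry, and Foxm1, the transcription factor of the mitotic wave, spanned 0.40 and 0.23 and did not. With the probe sets used, the 3 genes of the chromosomal passenger complex, which corrects the attachment of chromosomes to the spindle, varied most as a role. Their score was 0.02, 1.06, -0.39 and -0.64 in mdx HRTΔIKKβ and 1.14, -0.71 and -0.48 in mdx IKKβf/f hearts, and all 3 (Aurkb, the kinase, Birc5, which encodes survivin, and Cdca8) had the same 2 hearts on top. The probe sets of Aurkb and Cdca8 are of a type that can cross-hybridize. The other probe set of Aurkb spanned 0.40, and those of Cdca8 spanned 1.45 and 0.56.

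At the kinetochore, Nuf2 and Ndc80 (microtubule-binding subunits of the NDC80 complex) and Cenpe (a kinesin) followed the pattern, with ranges of 0.73, 0.45 and 1.09. Among genes of the spindle checkpoint and the anaphase-promoting complex, Bub1, Mad2l1 and Ube2c did so, the last being the ubiquitin-conjugating enzyme of that complex, with a range of 1.90. Of 8 genes of the spindle and cytokinesis, 7 did. These were the kinesins Kif11, Kif20a and Kif22, the microtubule-binding Nusap1, Prc1, which bundles the central spindle, Hmmr, and Racgap1, a subunit of centralspindlin. Their ranges lay between 0.33 (Hmmr) and 1.79 (Nusap1).

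Across all roles, 8 members did not have those 2 hearts on top, namely E2f1, Tyms, Plk1, Foxm1, Cenpa, Bub1b, Cdc20 and Tpx2. For some of them the choice of probe set decided this. Cdc20, the activator of the anaphase-promoting complex, measured 7.79, 7.86, 7.54 and 7.34 in mdx HRTΔIKKβ and 7.78, 7.08 and 7.48 in mdx IKKβf/f hearts with its brightest probe set, in which mdx HRTΔIKKβ replicate 1 came second. A dimmer probe set of Cdc20 measured 6.75, 7.59, 6.17 and 5.92 against 7.74, 6.06 and 6.28, with the 2 hearts on top. Tpx2, a spindle assembly factor, and Bub1b, which encodes the checkpoint kinase BUBR1, likewise had dimmer probe sets with those hearts on top. In one of Tpx2 the values were 4.94, 5.41, 4.88 and 4.87 against 5.35, 4.76 and 4.86. The choice also worked the other way. Dimmer probe sets of Ccne1, Mcm3 and Kif22, among other members counted with the pattern, did not have the 2 hearts on top. Counted over probe sets, 68 of the 104 probe sets of the members (65.4%) had them on top, against 3.69% of the 34945 probe sets with a single gene. Ties or near ties are among the 68, as in a probe set of Mcm7 that read 8.16 in mdx HRTΔIKKβ replicates 2, 3 and 4. In 40 of 45 members at least 1 probe set had the 2 hearts on top, and E2f1, Tyms, Plk1, Foxm1 and Cenpa were the exceptions. This last count can only add members to the pattern and not remove them.

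Members of the 2 phases differ in the letters of their promoters, which are shown here because these genes varied together. RefSeq promoters (GRCm38.p6, 250 bases before to 50 after the start) were available here for 39 of the 46 members. On both strands, matches were sought to the cell cycle genes homology region (CHR, spelled TTTGAA, with TTCGAA also accepted), which the DREAM and MMB-FOXM1 complexes bind in mitotic genes, to the CCAAT box, bound by NF-Y, and to E2F letters, spelled TTGGCGC, with the variants TTCCCGC, as well as TTCGCGC, and finally TTGCCGC accepted too. None of these words is contained in a word of another motif. CHR letters were found in 19 of 25 M phase members (76%) and 1 of 14 S phase members (7.14%), against 19.2% of all 32851 promoters. E2F letters were found in 4 of 25 M phase members (16%) and 8 of 14 S phase members (57.1%), against 9.57% of all promoters. The CCAAT box was found in 20 of 25 and 9 of 14, against 37.4%, and CHR letters together with a CCAAT box in 18 of 25 (72%) and 1 of 14, against 7.53%. Where a gene had more than 1 start in the table, the one of lowest coordinate was counted, and in Mcm7 a further window that was not counted held a CHR match. A match is a description of letters and not a binding site. In the runs that follow, capitals mark matches to any of the 3 motifs, and matches that overlap share 1 run of capitals. Mki67 (chr7:135716330-135716629, minus strand) holds CHR letters beginning at -116 and -98 relative to the start, and Top2a (chr11:99024140-99024439, minus strand) holds 4 CHR matches and 6 CCAAT boxes. Mcm6 (chr1:128359656-128359955, minus strand) shows the S phase type, with 5 E2F matches and no CHR letters. Cenpa (chr5:30666636-30666935, plus strand), Cdc20 (chr4:118437294-118437593, minus strand), Cenpe (chr3:135212313-135212612, plus strand) and Kif22 (chr7:127042371-127042670, minus strand) are the M phase members with the smallest p-values between groups among those in the table. Cenpa, which did not follow the other members, holds CHR letters and 2 CCAAT boxes. Cenpe, which followed them, holds a CCAAT box and no CHR letters, and Birc5, Nuf2 and Nusap1, which also followed them, hold neither.
Mki67: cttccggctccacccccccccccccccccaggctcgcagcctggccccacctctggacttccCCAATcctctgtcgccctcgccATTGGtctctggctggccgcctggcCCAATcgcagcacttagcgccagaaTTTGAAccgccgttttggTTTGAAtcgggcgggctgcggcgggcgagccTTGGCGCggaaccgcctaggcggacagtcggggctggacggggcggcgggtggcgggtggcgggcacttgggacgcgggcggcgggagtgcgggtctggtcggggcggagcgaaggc
Top2a: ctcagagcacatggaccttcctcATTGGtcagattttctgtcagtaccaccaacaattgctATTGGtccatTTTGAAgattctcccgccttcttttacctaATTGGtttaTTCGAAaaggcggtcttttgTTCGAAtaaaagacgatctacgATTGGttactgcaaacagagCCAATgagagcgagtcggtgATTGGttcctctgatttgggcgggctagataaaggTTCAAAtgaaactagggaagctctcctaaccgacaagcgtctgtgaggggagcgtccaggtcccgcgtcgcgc
Mcm6: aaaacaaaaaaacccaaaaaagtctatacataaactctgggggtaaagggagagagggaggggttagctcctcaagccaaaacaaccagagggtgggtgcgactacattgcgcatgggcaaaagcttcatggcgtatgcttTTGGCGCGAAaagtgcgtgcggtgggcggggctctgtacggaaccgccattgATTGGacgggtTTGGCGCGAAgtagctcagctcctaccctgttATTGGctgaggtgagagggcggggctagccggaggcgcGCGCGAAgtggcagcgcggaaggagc
Cenpa: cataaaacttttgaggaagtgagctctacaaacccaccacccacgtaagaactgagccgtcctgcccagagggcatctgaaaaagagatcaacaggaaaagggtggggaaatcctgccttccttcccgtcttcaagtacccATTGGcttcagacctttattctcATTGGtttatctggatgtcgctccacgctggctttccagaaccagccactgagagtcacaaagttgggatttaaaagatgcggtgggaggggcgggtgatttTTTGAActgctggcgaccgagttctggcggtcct
Cdc20: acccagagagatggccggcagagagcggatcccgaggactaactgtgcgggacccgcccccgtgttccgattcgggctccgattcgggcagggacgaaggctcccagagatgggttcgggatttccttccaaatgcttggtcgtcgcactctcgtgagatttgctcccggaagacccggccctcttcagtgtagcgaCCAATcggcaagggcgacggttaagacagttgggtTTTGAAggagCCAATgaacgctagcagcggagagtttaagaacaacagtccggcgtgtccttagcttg
Cenpe: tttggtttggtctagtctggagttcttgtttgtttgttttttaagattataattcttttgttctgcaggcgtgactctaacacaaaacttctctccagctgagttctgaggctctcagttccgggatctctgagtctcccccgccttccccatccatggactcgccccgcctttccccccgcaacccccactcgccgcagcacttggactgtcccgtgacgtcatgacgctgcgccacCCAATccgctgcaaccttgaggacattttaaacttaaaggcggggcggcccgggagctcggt
Kif22: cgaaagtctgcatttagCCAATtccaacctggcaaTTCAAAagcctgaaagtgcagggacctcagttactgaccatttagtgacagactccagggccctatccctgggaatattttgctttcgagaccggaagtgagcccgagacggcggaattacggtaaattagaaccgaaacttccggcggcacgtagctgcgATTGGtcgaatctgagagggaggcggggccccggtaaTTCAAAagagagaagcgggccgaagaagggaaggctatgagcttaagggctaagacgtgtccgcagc

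Of the comparison between genotypes, the question was whether loss of IKKβ from cardiomyocytes changed the cell division programme of the dystrophic heart. No member passed an adjusted p of 0.05 in limma, and the smallest adjusted p was 0.796. Over all 45037 probe sets none passed either, while 2735 (6.07%) had an unadjusted p under 0.05. Among the members 2 had an unadjusted p under 0.05, or 4.44%, against 6.2% of all genes. The mean was lower in mdx HRTΔIKKβ hearts in 33 members and higher in 12, while 52.3% of all genes had a lower mean. None of the members differed by 1.5-fold, as 1.45% of all genes did. The median difference was -0.05 over all members, -0.06 in S phase and -0.05 in M phase members, and -0.01 over all genes. The member score averaged -0.03 ± 0.33 (SD, n = 4) in mdx HRTΔIKKβ and 0.04 ± 0.51 (SD, n = 3) in mdx IKKβf/f hearts, so that the gap between groups was far smaller than the spread within either.

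The 2 members with an unadjusted p under 0.05 were both lower in mdx HRTΔIKKβ hearts, as 2.95% of all genes were at that threshold, and neither had the 2 hearts on top. Cenpa encodes the histone H3 variant that marks the centromere. It stood at 9.79, 10.07, 10.13 and 10.14 in mdx HRTΔIKKβ and at 10.24, 10.30 and 10.38 in mdx IKKβf/f hearts. It was the one member whose groups did not overlap (1 of 45, against 5.67% of all genes in either direction, 2.62% lower and 3.05% higher), with a difference of -0.28 ± 0.10 (limma, unadjusted p = 0.0209, adjusted p = 0.796). Tpx2 stood at 6.91, 6.57, 6.80 and 6.66 against 6.91, 7.01 and 7.03, with a difference of -0.25 ± 0.09 (limma, unadjusted p = 0.024, adjusted p = 0.796). With the most variable probe set of each gene neither was called, and the difference was 0.057 in Cenpa and 0.035 in Tpx2.

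**Figure D3:**
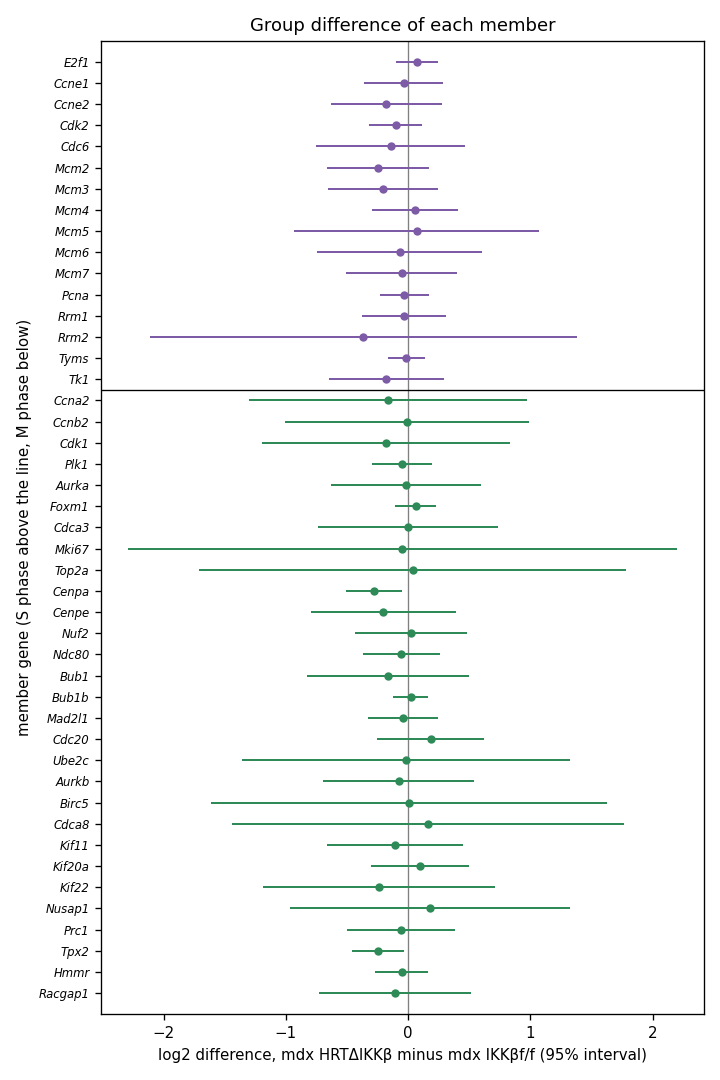
Log2 difference (x axis, mdx HRTΔIKKβ minus mdx IKKβf/f) of each member with its 95% interval from limma, S phase members in purple and M phase members in green. All intervals include 0 except those of Cenpa and Tpx2, which do not account for the testing of many genes, and the widest belong to Mki67, Top2a, Rrm2, Birc5 and Cdca8.

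The intervals show what these 7 hearts could resolve. In 19 of 45 members the 95% interval lay within 1.5-fold in either direction, among them E2f1, Cdk2, Pcna, Plk1, Foxm1 and Mad2l1. None of the 18 members that spanned at least 1 between hearts was among those 19. For Mki67, Top2a, Rrm2, Birc5, Cdca8 and Ube2c differences of more than 2-fold in either direction were inside the interval and were not resolved.

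The direction of the shift depended on single hearts. Without mdx IKKβf/f replicate 1, 40 of 45 members averaged higher in mdx HRTΔIKKβ than in mdx IKKβf/f hearts, with a median of 0.15, and without mdx HRTΔIKKβ replicate 2, 41 had a lower mean, with a median of -0.20. In the former case 5 members differed by 1.5-fold or more, all higher, and in the latter 2, both lower. Leaving out mdx IKKβf/f replicate 2 gave the lowest median, -0.23. Without both high hearts 32 members had a higher and 13 a lower mean, with a median of 0.06. That last alternative was chosen after seeing the data, and it called Mcm4 and Tpx2 at an unadjusted p under 0.05 and left Cenpa out. None of these fits gave a member an adjusted p under 0.05.

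**Figure D4:**
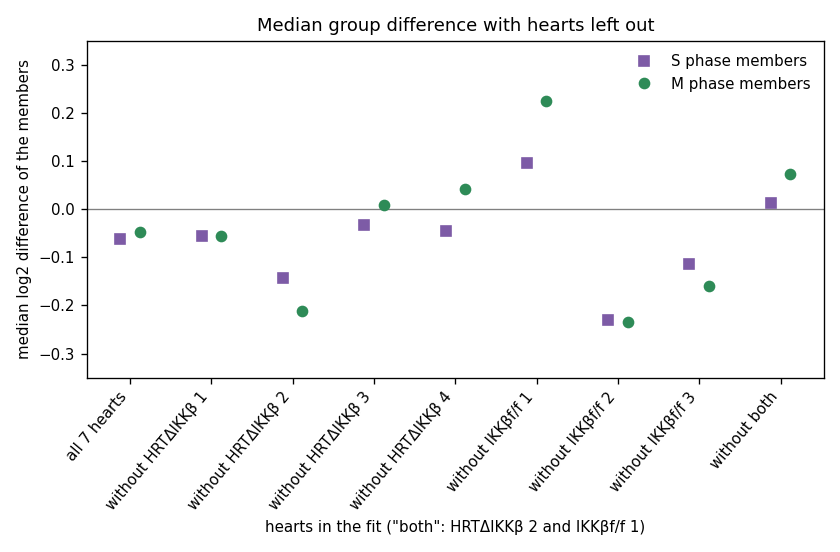
Median log2 difference (y axis, mdx HRTΔIKKβ minus mdx IKKβf/f) of the 16 S phase members (purple squares) and the 29 M phase members (green circles) with all 7 hearts, with each heart left out in turn, and without both mdx HRTΔIKKβ replicate 2 and mdx IKKβf/f replicate 1. The medians move from below 0 to above 0 when mdx IKKβf/f replicate 1 is left out, and the S phase and M phase medians have opposite signs without mdx HRTΔIKKβ replicate 3 or 4.

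Further genes of S and M phase had the same 2 hearts on top in smaller shares than the members. Of 44 other S phase genes measured, 14 (31.8%) had the same 2 hearts on top, and of 51 other M phase genes 27 (52.9%) did. Hmgb2, a chromatin protein of dividing cells, measured 8.73, 9.76, 8.83 and 8.31 against 9.91, 8.45 and 8.56, and Cks2, a CDK1-binding protein, measured 6.93, 7.83, 6.34 and 6.36 against 7.85, 5.90 and 6.52. At an unadjusted p under 0.05 there were 2 lower and 0 higher genes among the other S phase genes, against 2.95% and 3.25% of all genes in those directions, and 1 lower and 0 higher among the other M phase genes. They were Ung, a uracil-DNA glycosylase of base excision repair (-0.38 ± 0.07), Hells, a chromatin remodeller (-0.20 ± 0.08), and Kif15, a kinesin (-0.27 ± 0.10). None of them had those 2 hearts on top.

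Genes of G1 entry and of quiescence were considered next. Of 8 genes of G1 entry (D cyclins, their kinases, Myc and E2f3) none had the 2 hearts on top. Myc, a transcription factor that promotes cell growth, stood at 7.41, 7.48, 7.61 and 7.55 in mdx HRTΔIKKβ and at 7.14, 7.08 and 6.94 in mdx IKKβf/f hearts, without overlap, and differed by 0.46 ± 0.07 (limma, adjusted p = 0.56). Ccnd2, cyclin D2, which partners CDK4 and CDK6, stood at 11.26, 11.41, 11.30 and 11.49 against 11.57, 11.72 and 11.69, also without overlap. It differed by -0.30 ± 0.07 (limma, adjusted p = 0.79). Groups thus did not overlap in 1 higher and 1 lower of the 8 genes, against 3.05% and 2.62% of all genes. Of 22 inhibitors and regulators of quiescence 6 (27.3%) had the 2 hearts on top. Cdkn1a, the CDK inhibitor p21, was the only one of them that differed by 1.5-fold, with 9.68, 11.06, 11.20 and 9.87 against 8.69, 9.55 and 8.42, and a difference of 1.56 ± 0.44 (limma, adjusted p = 0.796). Its groups did not overlap, and its highest heart was mdx HRTΔIKKβ replicate 3, not one of the 2 hearts in which the members were high. Of the 22, 2 did not overlap, both higher, against 3.05% of all genes, the other being Cdkn2b (0.09 ± 0.06). E2f5, a repressive E2F factor of quiescent cells, differed by -0.24 ± 0.10 (limma, adjusted p = 0.796). In each of these 2 lists 1 gene was higher and 1 lower at an unadjusted p under 0.05 in limma, against 3.25% and 2.95% of all genes.

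Markers of 2 blood cell lineages moved with the same hearts. Of 9 neutrophil markers measured, 8 had mdx HRTΔIKKβ replicate 2 and mdx IKKβf/f replicate 1 on top, and their score ranged from -1.08 to 2.78 in mdx HRTΔIKKβ and from -1.20 to 2.37 in mdx IKKβf/f hearts. S100a8, a calcium-binding protein of neutrophils, measured 8.22, 13.27, 8.13 and 6.99 against 12.85, 6.93 and 7.59. Mpo, the myeloperoxidase made by neutrophil precursors in the bone marrow, measured 5.59, 9.73, 5.63 and 5.51 against 8.34, 5.68 and 5.50. Cxcr2, a receptor of mature neutrophils, was the exception, with a range of 0.52. Of 9 erythroid markers 6 had them on top, with scores from -0.32 to 0.56 and from -0.33 to 0.62. Epb42, counted among the 6, spanned only 0.15 and is there by a tie. It read 6.12 in mdx HRTΔIKKβ replicate 2 and also in mdx IKKβf/f replicates 2 and 3. Slc4a1, the anion exchanger of red cells, measured 6.21, 8.98, 5.84 and 5.70 against 9.49, 6.00 and 5.97. The haemoglobin genes Hba-a1 and Hbb-b2, and Tfrc, did not. Hba-a1 read only 4.2 to 4.5 in every heart, near the lowest value on any array, 3.12, and so says little about haemoglobin. Hbb-b2 measured 7.75, 7.66, 7.34 and 7.07 against 7.96, 7.11 and 6.88. There mdx IKKβf/f replicate 1 was the highest heart, and mdx HRTΔIKKβ replicate 1 lay narrowly above replicate 2. Values after RMA have no 0, so that none of these markers can be called absent. The part of such cells in the levels of the cell division genes was not tested.

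For markers of other cell types, those 2 hearts were on top in 2 of 21 macrophage, 2 of 10 fibroblast, 1 of 10 endothelial, 1 of 11 T and NK cell, 1 of 12 cardiomyocyte, 1 of 14 skeletal muscle, 1 of 6 adipocyte and 0 of 11 B and plasma cell markers. They were on top in 0 of 8 atrial, 0 of 8 airway and 0 of 8 mesothelial markers. Several of these lists nevertheless set 1 of the hearts apart. The skeletal muscle score was 3.54 in mdx IKKβf/f replicate 1. It was 0.61 in mdx IKKβf/f replicate 3, 0.11 in mdx HRTΔIKKβ replicate 2 and -1.18 to -0.94 in the remaining hearts. The B and plasma cell score was 1.41 in mdx HRTΔIKKβ replicate 2 and -0.85 to 0.46 in the others. The T and NK cell score was highest, at 0.70, in mdx HRTΔIKKβ replicate 1, the heart that ranked next in most cell division genes. The airway, adipocyte and mesothelial scores were highest in mdx HRTΔIKKβ replicate 2, at 2.73, 1.61 and 1.05. The atrial score was lowest, at -1.59, in mdx IKKβf/f replicate 2, against -0.32 to 0.90 in the others. Whether these cells or tissues contributed to the levels of the members was not tested.

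**Figure D5:**
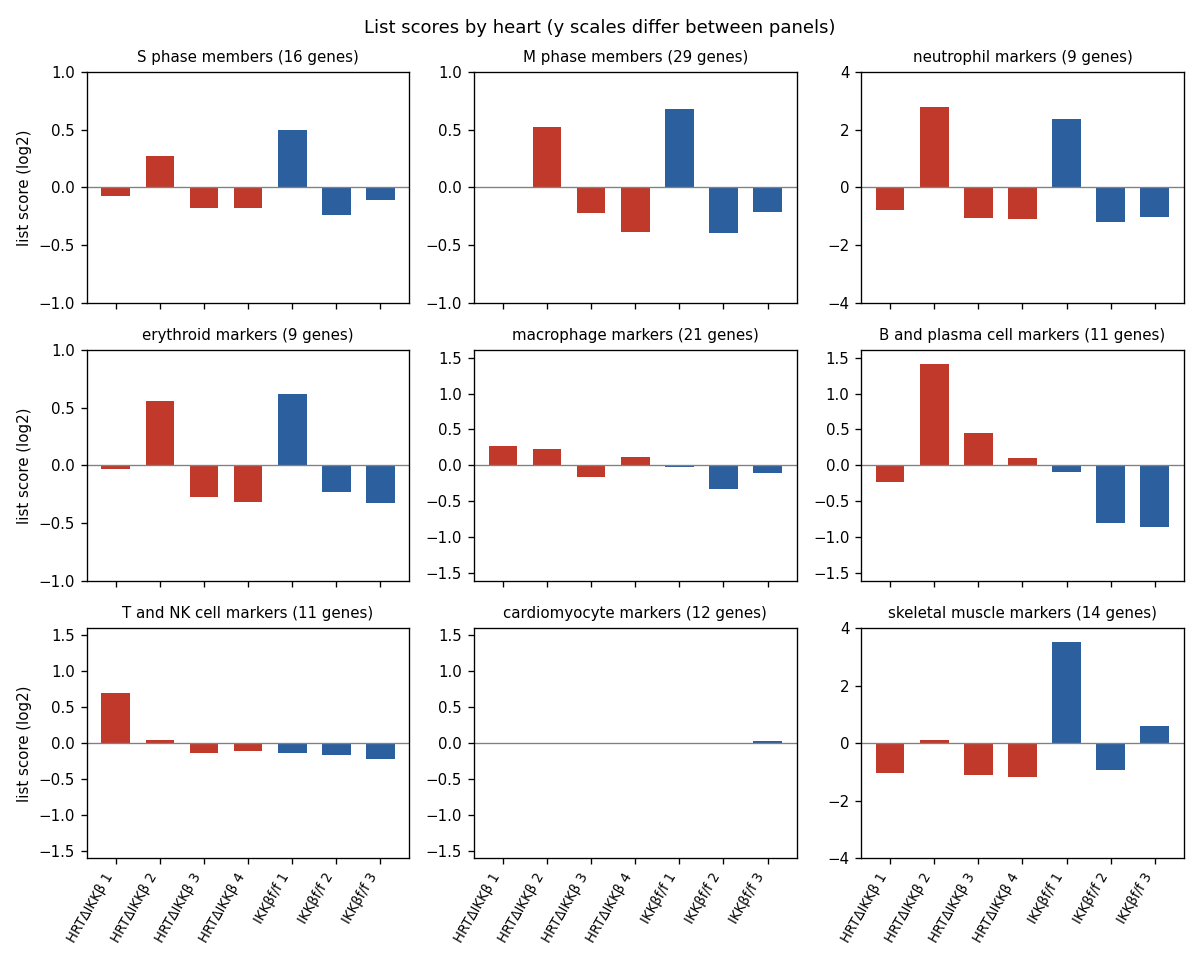
List scores (y axis, mean of gene-centred log2 values, with scales that differ between panels) in mdx HRTΔIKKβ (red) and mdx IKKβf/f (blue) hearts for the S phase and M phase members and for markers of 7 cell types. The neutrophil and erythroid panels have their 2 tallest bars in HRTΔIKKβ 2 and IKKβf/f 1, as the member panels do, whereas the cardiomyocyte scores lie between -0.01 and 0.04.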

How the data were processed

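Biotin-labelled total RNA of whole hearts was measured on Affymetrix mouse arrays. The log2 values deposited by the authors had been computed with the robust multi-array average (RMA), which corrects background, forces all arrays to 1 distribution and summarizes probes. The study's methods name Partek, and Affymetrix Expression Console as an independent run. Versions, and which program made the table, are not given in the sources used here. RMA shrinks differences of dim probe sets, and a shift of the whole array is lost by quantile normalization.

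All 45037 probe sets were fitted with limma 3.58.1 in R 4.3.3 (lmFit and eBayes, two-sided, mdx HRTΔIKKβ minus mdx IKKβf/f, no covariate, Benjamini-Hochberg over all probe sets), and the procedure was tested on simulated data. The methods name no test of single probe sets for the arrays. For each gene the brightest probe set on average, of those annotated to 1 gene, was used. GEO's platform annotation, which can be old, gave 34945 probe sets 1 gene, 932 several and 9160 none. The study states that samples are biological replicates. Promoters were taken from a RefSeq table (GRCm38.p6). Members, gene lists and markers were chosen with earlier results of these data known. Members named in full were Mki67, Top2a, Pcna, Cdk1, the 8 with the smallest unadjusted p, the 4 with the widest range, and any that differed by 1.5-fold. From each other list up to 3 genes with the smallest unadjusted p were allowed. Hmgb2, Cks2, the markers, Birc5, the role groups, and the promoters of Mki67, Top2a and Mcm6 were added after their values were seen. Alternatives were centring on array medians, quantile normalization once more, leaving out probe sets that are dim or that cross-hybridize, a variance trend, robust variance, array weights, the replicate block, other probe sets per gene, each heart left out, and the methods' Student test.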

Additional observations from a re-analysis of the deposited data

How the results depend on the processing

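No alternative gave a member an adjusted p under 0.05. Members with an unadjusted p under 0.05 numbered 2 (Cenpa and Tpx2) in limma and in the methods' Student test. They numbered 0 with the mean of all probe sets of a gene and 0 with the most variable one, and 0 to 3 with 1 heart left out (0 without mdx IKKβf/f replicate 3, and 3 when replicate 1 of that group was left out). Probe sets past an adjusted p of 0.05 numbered 0, and 0 to 1 with 1 heart left out (1 without mdx HRTΔIKKβ replicate 1). Deviations of same-numbered hearts correlated at -0.08, -0.38 and -0.04, and those of mdx HRTΔIKKβ replicate 2 and mdx IKKβf/f replicate 1 at 0.37. Deviations from the mean of so few hearts constrain each other, so that these values cannot settle whether hearts were paired. The replicate block left 1 such member (Cenpa) and turned Mki67 to 0.32, but mdx HRTΔIKKβ replicate 4 has no partner in it, and leaving out that heart alone gave the same values. With 1 heart left out the median difference ran from -0.23 to 0.15 in all members, from -0.23 to 0.10 in S phase and from -0.23 to 0.22 in M phase members. Named differences that changed sign with 1 heart left out ranged from -0.75 to 1.01 in Mki67, -0.49 to 0.85 in Top2a, -0.11 to 0.039 in Pcna, -0.51 to 0.31 in Cdk1, -0.0010 to 0.35 in Cdc20, -0.34 to 0.030 in Ccne2, -0.84 to 0.50 in Rrm2 and -0.30 to 0.87 in Cdca8. Without both high hearts Mki67 was 0.39, Pcna 0.0026, Cdk1 0.07 and Rrm2 0.02. Without cross-hybridizing probe sets Mcm3 was 0.10 and Cdca8 -0.067, and Rrm2 moved from -0.37 to -0.027 with its sign kept. Array weights gave -0.33 in Top2a and -0.19 in Cdca8, and moved the median of all members to -0.19. The mean of probe sets gave -0.083 in Top2a and -0.027 in E2f1. The most variable probe set gave 0.057 in Cenpa, 0.035 in Tpx2, -0.14 in E2f1 and -0.087 in Cdc20. The other 233 of these values for single genes kept their direction and their side of an adjusted p of 0.05. The cause of the reversals was not tested, but the alternatives without a heart rest on fewer samples. Dim signal limits 20 of the 45 members, whose mean was at or under the median of all probe sets.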

Other observations

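Outside the lists, the genes that varied most between hearts included many with the same 2 hearts on top as the cell division genes. Of 872 genes that spanned at least 1 on the log2 scale over the 7 hearts, 145 had mdx HRTΔIKKβ replicate 2 and mdx IKKβf/f replicate 1 on top. Of these, 18 were members, 12 belonged to the lists of other S phase and M phase genes, 8 were neutrophil and 4 erythroid markers, and 99 were in no list. The rest were 1 macrophage, 1 fibroblast, 1 skeletal muscle and 1 adipocyte marker. Among the 99 in no list, chosen here after their values were seen, Chil3, a chitinase-like protein of myeloid cells, measured 8.47, 10.81, 4.50 and 4.96 in mdx HRTΔIKKβ and 9.51, 4.62 and 5.09 in mdx IKKβf/f hearts. Hemgn, a nuclear protein of haematopoietic cells, measured 4.20, 7.92, 3.88 and 4.17 against 8.53, 4.09 and 4.20. Prtn3, a serine protease of neutrophil granules, measured 7.36, 9.84, 7.10 and 7.2 against 9.07, 7.29 and 7.29. Ppbp, a platelet chemokine, measured 8.32, 9.79, 8.13 and 7.43 against 9.65, 6.70 and 6.87. Acp5, an acid phosphatase of osteoclasts and macrophages, measured 6.79, 9.0, 6.38 and 6.50 against 7.2, 5.86 and 5.92. In each of these genes 1 heart of either group was the highest, as in the members, and Chil3, Prtn3, Ppbp and Acp5 came next highest in mdx HRTΔIKKβ replicate 1.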
